A study of Homo sapiens with 4 samples.

Results

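The 10 nuclear genes described here encode proteins that copy the mitochondrial genome into RNA and then modify, protect or degrade that RNA. They are *TFAM*, *POLRMT*, *TFB1M*, *TFB2M*, *TEFM*, *MTERF1*, *LRPPRC*, *SLIRP*, *FASTKD2* and *PNPT1*, chosen by gene name from 58735 genes in the deposited tables, and each matched 1 row. They are described beside the 2 mitochondrial rRNAs, *MT-RNR1* (the 12S rRNA of the small mitochondrial ribosomal subunit) and *MT-RNR2* (the 16S rRNA of the large subunit). The cells were HCT116, a long-established cell line from a human colon carcinoma, grown in McCoy's 5A medium with serum. The 2 RBM25_sh libraries were made from cells with a short hairpin RNA (shRNA) against *RBM25*, which encodes an RNA-binding splicing factor, and the 2 Control_sh libraries from cells with a control shRNA. The labels give neither the hairpin sequences nor the time after knockdown, and do not say that replicates came from separate cultures. The p-values therefore reflect library-to-library spread alone, and part of that spread may be technical.

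Mitochondrial DNA is transcribed by the single-subunit polymerase POLRMT, which starts at a promoter together with the DNA-bending factor TFAM and the promoter-opening factor TFB2M. The long transcripts are extended with the help of TEFM and then cut into rRNAs, tRNAs and mRNAs, and MTERF1 binds the DNA just beyond the 16S rRNA gene. After cutting, TFB1M methylates the 12S rRNA, FASTKD2 binds the 16S rRNA, the LRPPRC and SLIRP complex holds the mRNAs stable, and PNPT1 degrades RNA.

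The sequences that these proteins act on show where the factors meet the rRNAs. The first line gives the last 45 bases of the 12S rRNA gene (GRCh38, chrM:1557-1601, plus strand), with the adjacent adenosines that TFB1M dimethylates in capitals. They are bases 936 and 937 of the RNA. The second line gives *MT-TL1* (chrM:3230-3304, plus strand), the leucine tRNA gene that starts directly after the end of the 16S rRNA gene, with 13 bases of the MTERF1 binding site in capitals (3237 to 3249). Both were taken from the GENCODE release 29 transcripts.
MT-RNR1 end: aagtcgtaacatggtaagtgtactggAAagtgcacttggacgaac
MT-TL1: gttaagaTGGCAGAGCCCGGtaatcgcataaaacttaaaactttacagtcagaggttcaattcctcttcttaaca

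The promoters of *TFAM*, *TFB1M* and *TFB2M* are known targets of the factors NRF1 and GABP, the second of the ETS family, so the RefSeq promoters (GRCh38.p14, 250 bases before to 50 after the start) were searched on both strands for 7 letters of the NRF1 site, GCGCATG, and for the ETS form CCGGAAG. All 10 genes had an entry. The NRF1 letters were found in 3 of the 10, *POLRMT*, *TFB1M* and *TFB2M*, and in 5.30% of 27305 genes with a promoter entry (4.43% of 35116 promoters). The ETS letters were found in 5, *POLRMT*, *TFB1M*, *TEFM*, *MTERF1* and *SLIRP*, and in 12.2% of those genes (10.3% of promoters). Where the NRF1 letters lie in a palindrome, as in *POLRMT* and *TFB1M*, the matches on the 2 strands overlap. The 2 paralogous factors and the polymerase are shown because they hold the NRF1 letters, and *FASTKD2* because it had the smallest p of the 10 genes below. Matches are in capitals, and *FASTKD2* has none. In *TFAM*, *TEFM* and *FASTKD2* the RefSeq start lies inside the counted gene, so little or no sequence before that gene was searched. A match is a run of letters, and its absence says only that these letters are not in this window. Among the known targets named above, *TFAM* had neither set of letters and *TFB2M* lacked the ETS letters. Counts of matches are therefore not counts of binding sites. The lines cover chr19:633488-633787 (minus strand) for *POLRMT*, chr6:155314435-155314734 (minus strand) for *TFB1M*, chr1:246566212-246566511 (minus strand) for *TFB2M* and chr2:206765356-206765655 (plus strand) for *FASTKD2*.
POLRMT promoter: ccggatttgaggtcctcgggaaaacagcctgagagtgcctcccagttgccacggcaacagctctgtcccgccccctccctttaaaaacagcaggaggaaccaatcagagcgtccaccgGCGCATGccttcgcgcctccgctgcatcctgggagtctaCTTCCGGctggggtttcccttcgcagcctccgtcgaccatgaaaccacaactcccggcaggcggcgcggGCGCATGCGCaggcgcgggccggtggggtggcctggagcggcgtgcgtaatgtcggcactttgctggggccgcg
TFB1M promoter: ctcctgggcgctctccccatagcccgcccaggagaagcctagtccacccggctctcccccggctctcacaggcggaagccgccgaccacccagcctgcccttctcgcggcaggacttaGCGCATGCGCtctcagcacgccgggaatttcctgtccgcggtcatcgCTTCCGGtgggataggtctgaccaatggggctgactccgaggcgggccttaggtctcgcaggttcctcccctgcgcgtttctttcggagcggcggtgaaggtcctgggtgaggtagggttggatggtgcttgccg
TFB2M promoter: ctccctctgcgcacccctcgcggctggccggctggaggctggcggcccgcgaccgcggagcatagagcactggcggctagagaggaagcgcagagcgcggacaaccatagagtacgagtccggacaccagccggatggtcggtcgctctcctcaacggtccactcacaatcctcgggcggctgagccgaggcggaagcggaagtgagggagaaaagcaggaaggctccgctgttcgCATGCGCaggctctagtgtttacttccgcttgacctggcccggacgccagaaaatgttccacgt
FASTKD2 promoter: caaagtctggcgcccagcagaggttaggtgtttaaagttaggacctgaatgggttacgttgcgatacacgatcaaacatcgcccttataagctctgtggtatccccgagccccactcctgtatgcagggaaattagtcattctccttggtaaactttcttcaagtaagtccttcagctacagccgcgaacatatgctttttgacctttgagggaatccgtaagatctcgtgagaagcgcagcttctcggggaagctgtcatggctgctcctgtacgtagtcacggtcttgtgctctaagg

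Total counts per library were 15528274 and 16335555 for RBM25_sh and 15528869 and 16982663 for Control_sh. Values are TMM-scaled CPM, that is, counts relative to library size with an adjustment for RNA composition, unless FPKM (also per length) is named. *RBM25* stood at 44.0 and 35.7 CPM in RBM25_sh libraries, against 155 and 115 CPM in Control_sh libraries (log2 fold change −1.76 ± 0.30 SE, edgeR adjusted p = 0.0195). Without RBM25_sh replicate 1 its edgeR adjusted p was 0.119, and without RBM25_sh replicate 2 it was 0.202, while limma-trend on log2(FPKM + 1) gave 0.0572. In every fit without 1 library, the group left with a lone library is assumed to vary like the other group. Of the 8 epithelial markers examined, *EPCAM*, *KRT8*, *KRT18*, *KRT19*, *CDH1* and *CLDN7* were detected in all 4 libraries, while *CDX1* was at 0 and *VIL1* had at most 0.0670 CPM. *CLDN7*, a tight junction claudin, had 31.3 and 55.2 CPM in RBM25_sh libraries, against 122 and 253 CPM in Control_sh libraries (log2 fold change −2.12 ± 0.41 SE, edgeR adjusted p = 0.0309), and none of the other 5 detected markers was called. The 10 markers of blood, vessel, stromal and liver cells summed to 38.6 and 49.4 CPM in RBM25_sh libraries, against 42.2 and 64.5 CPM in Control_sh libraries, nearly all of it *COL1A1*. In bulk RNA, fewer cells with a transcript and less of it per cell cannot be told apart.

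The 12S rRNA was several-fold higher in the RBM25_sh libraries, and none of the 10 factors passed in edgeR with group as the only term. With the GC content offsets described below, 6 of the 10 were called higher, where 12.0% of all genes were. *MT-RNR1* (chrM:648-1601, plus strand) had 8975 and 8376 CPM in RBM25_sh libraries, against 1092 and 924 CPM in Control_sh libraries. The groups lay far apart and the replicates close together. The difference was 8.61-fold (log2 fold change 3.11 ± 0.26 SE, edgeR adjusted p = 0.0024), and under all 16 alternatives tried it stayed past the threshold.

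The 16S rRNA was higher by a smaller factor. *MT-RNR2* (chrM:1671-3229, plus strand) had 19210 and 17256 CPM in RBM25_sh libraries, against 11135 and 8557 CPM in Control_sh libraries. The groups did not overlap, but the difference of 0.89 ± 0.24 on the log2 scale did not pass (edgeR adjusted p = 0.0775). With the GC content offsets described below it was 0.76 ± 0.21 with an edgeR adjusted p of 0.0239.

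Per length, the ratio of 12S to 16S rRNA (FPKM over FPKM) was 0.763 and 0.793 in RBM25_sh libraries, against 0.16 and 0.177 in Control_sh libraries. The log2 ratio averaged −0.36 in RBM25_sh libraries and −2.57 in Control_sh libraries, a difference of 2.21. With 2 libraries against 2, an exact two-sided permutation test cannot go below p = 0.333, which is the value it gave. Both rRNAs together took 2.71% (95% Wilson interval 2.70 to 2.72) and 2.46% (2.46 to 2.47) of all counts in RBM25_sh libraries. In Control_sh libraries they took 1.24% (1.24 to 1.25) and 1.0% (0.996 to 1.01). These intervals cover counting error only. Reads assigned to *MT-TV*, the short tRNA gene between the 2 rRNA genes, numbered 190 and 229 in RBM25_sh libraries, against 35 and 30 in Control_sh libraries. *MT-TF*, the tRNA gene before the 12S rRNA gene, had 5 and 2 counts in RBM25_sh libraries, against 3 and 4 in Control_sh libraries. *MT-TL1*, directly after the 16S rRNA gene, had 310 and 377 counts in RBM25_sh libraries, against 255 and 118 in Control_sh libraries. All mitochondrial tRNA genes together were lower in both RBM25_sh libraries, with 5682 and 5528 counts, against 6496 and 8450 counts in Control_sh libraries, and this sum was not tested.

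The labels do not say whether RNA was selected by its poly(A) tail or depleted of rRNA. Beside the mitochondrial tRNAs above, other RNAs that mostly lack such a tail had the following values. Small nucleolar RNA genes summed to 811 and 745 counts in RBM25_sh libraries, against 683 and 823 in Control_sh libraries. Small nuclear RNA genes summed to 610 and 527 counts in RBM25_sh libraries, against 704 and 552 in Control_sh libraries, and both of these classes overlapped between the groups. Genes annotated as rRNA, the mitochondrial rRNAs apart, held 17 and 15 counts in RBM25_sh libraries, against 5 and 13 in Control_sh libraries. *RNA45SN5*, a gene of the cytosolic rRNA precursor, is not among the deposited genes, so this sum need not cover all cytosolic rRNA. *RN7SL2*, an RNA of the signal recognition particle, had 56 and 231 counts in RBM25_sh libraries, against 80 and 16539 in Control_sh libraries, so Control_sh replicate 2 stood apart. *RN7SL1*, *RN7SK*, *RMRP* and *RPPH1*, also RNAs of this kind, held 0 counts in every library. How reads matching several genes were counted is not given, so 0 counts need not mean that the RNA was absent. The part of RNA selection in the rRNA difference was not tested. Nuclear copies of the rRNA genes can share reads with them. The *MTRNR2L* genes, named as copies of *MT-RNR2*, held 10 and 12 counts in RBM25_sh libraries, against 18 and 1 in Control_sh libraries. Nuclear copies of *MT-RNR1* were not examined.

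The mitochondrial mRNAs did not pass the test. Of the 13, all but *MT-ND6* are encoded on the same strand as the rRNAs. EdgeR called none of the 13 in either direction, beside 3.05% of all genes. At an unadjusted p under 0.05 it gave 2, both higher, beside 21.4% of all genes (7.92% higher). The median log2 fold change of the 13 was 0.08. The nearest were the complex I subunit genes *MT-ND2* (0.96 ± 0.30 SE, edgeR adjusted p = 0.115) and *MT-ND1* (0.68 ± 0.28, edgeR adjusted p = 0.193), whose genes follow the rRNA genes on the heavy-strand transcript. The 13 mRNAs summed to 82580 and 70712 CPM in RBM25_sh libraries, against 83680 and 60555 CPM in Control_sh libraries, and these ranges overlapped.

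**Figure D1:**
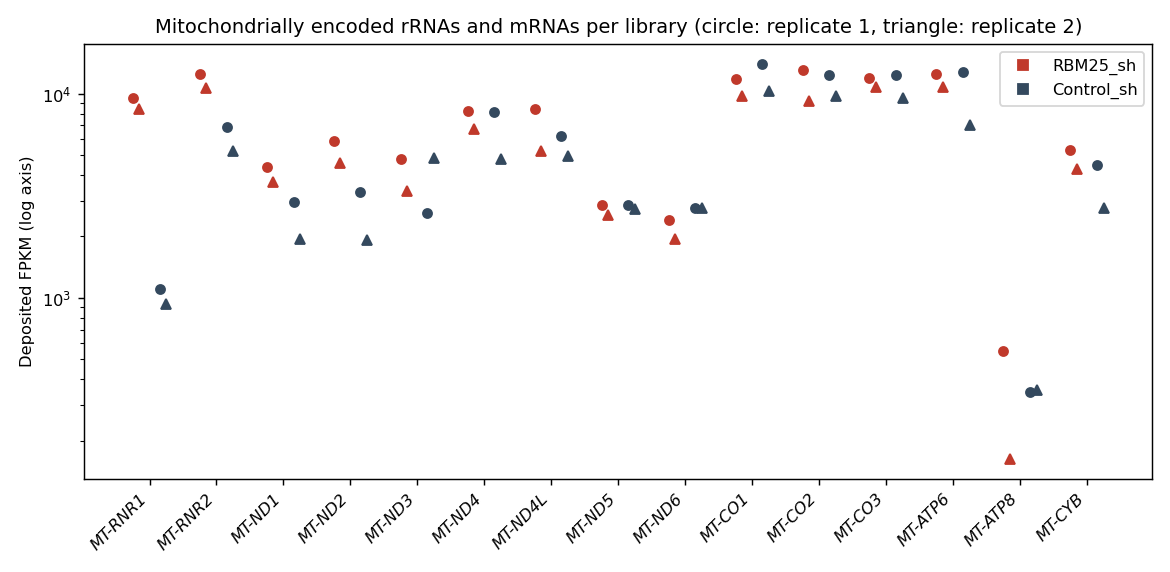
Deposited FPKM (log axis) of the 2 mitochondrial rRNAs and 13 mitochondrial mRNAs in each library, with RBM25_sh left of Control_sh for every gene, circles for replicate 1 and triangles for replicate 2. *MT-RNR1* stands at 9507 and 8448 FPKM in RBM25_sh libraries, against 1102 and 929 FPKM in Control_sh libraries, while most mRNAs overlap between the groups.

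Among the 10 factors, 9 had a log2 fold change above 0, beside 47.5% of all 16091 genes tested. EdgeR called none of the 10 higher and none lower, where 3.05% of all genes tested were called (0.653% higher and 2.40% lower). All 10 passed the filter on low counts. At an unadjusted p under 0.05 edgeR gave 4 of the 10, *FASTKD2*, *MTERF1*, *TFB2M* and *TFAM*, all higher, where 21.4% of all genes met this limit and 7.92% were higher. The DESeq2 Wald test called *FASTKD2* alone higher, where it called 2.40% of all genes higher. Limma-voom called none of the 10, where it called 0.522% of all genes higher. Limma-trend on log2(FPKM + 1) and log2(FPKM + 0.1) also called none, where 0.360% and 0.447% of all genes were called higher. The median log2 fold change of the 10 was 0.62, and that of all genes tested was −0.04. The groups did not overlap in 7 of the 10, where 51.8% of all genes did not. In 6 of the 10 both RBM25_sh libraries lay above both Control_sh libraries, and in *TFB1M* both lay below. Over all genes tested, 23.9% were higher and 27.9% lower in this sense.

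**Figure D2:**
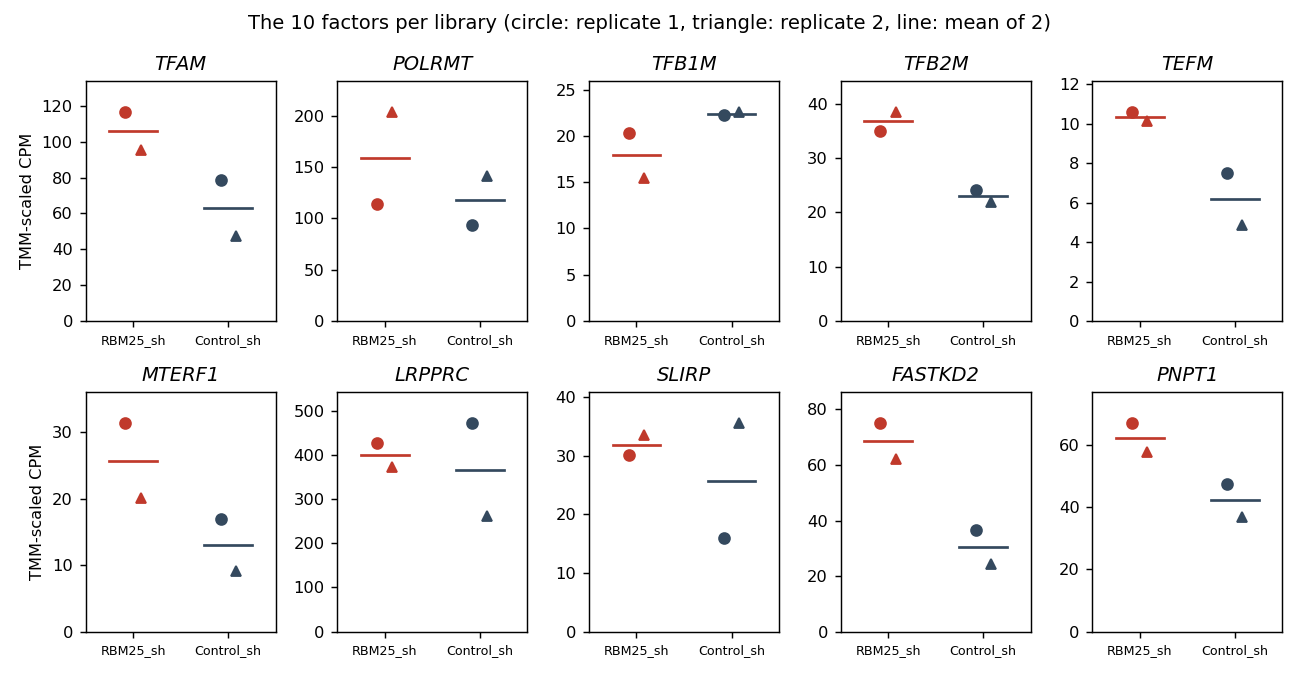
TMM-scaled CPM (linear axes from 0) of the 10 factors in each library, RBM25_sh left of Control_sh, with circles for replicate 1, triangles for replicate 2 and lines for the mean of 2. The groups overlap for *POLRMT*, *LRPPRC* and *SLIRP*, *TFB1M* is lower in both RBM25_sh libraries, and the other 6 are higher in both.

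Of the factors that start and extend transcription, *TFAM* (ENSG00000108064, chr10:58385022-58399221, plus strand) had 116 and 95.5 CPM in RBM25_sh libraries, against 78.9 and 47.6 CPM in Control_sh libraries. The groups did not overlap, and the lowest RBM25_sh library exceeded the highest Control_sh library by less than the Control_sh libraries differed. The difference of 0.74 ± 0.32 on the log2 scale did not pass (edgeR adjusted p = 0.212), and it was 1.16 without Control_sh replicate 1 and 0.42 without Control_sh replicate 2. The *TFAM* processed pseudogenes *TFAMP1* and *TFAMP2* held 0 counts in every library.

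*POLRMT* (ENSG00000099821, chr19:617224-633604, minus strand) had 114 and 204 CPM in RBM25_sh libraries, against 93.2 and 142 CPM in Control_sh libraries. Replicate 2 was the higher one in both groups and the ranges overlapped (log2 fold change 0.43 ± 0.35 SE, edgeR adjusted p = 0.515). Its log2 fold change was −0.0071 without RBM25_sh replicate 2. Its processed pseudogene *POLRMTP1* held 31 and 32 counts in RBM25_sh libraries, against 13 and 34 in Control_sh libraries, beside 1699 and 3194 counts for *POLRMT* in RBM25_sh libraries and 1474 and 2543 in Control_sh libraries.

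*TFB2M* (ENSG00000162851, chr1:246540560-246566324, minus strand), the initiation factor, had 35.0 and 38.4 CPM in RBM25_sh libraries, against 24.0 and 21.8 CPM in Control_sh libraries. The replicates lay close together in both groups. The log2 fold change of 0.68 ± 0.28 did not pass (edgeR adjusted p = 0.199). Its paralog *TFB1M* (ENSG00000029639, chr6:155257509-155314493, minus strand), the 12S rRNA methyltransferase, was the only one of the 10 with a log2 fold change below 0. It had 20.3 and 15.5 CPM in RBM25_sh libraries, against 22.3 and 22.5 CPM in Control_sh libraries (−0.32 ± 0.30 SE, edgeR adjusted p = 0.569). The lower value of *TFB1M* in RBM25_sh libraries rests mainly on replicate 2, and without it the log2 fold change was −0.10. The exons of *TFB1M* share 7.86% of their bases with *TIAM2* on the opposite strand, and the strand setting of the counts is not given, so reads there cannot be assigned.

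*TEFM* (ENSG00000172171, chr17:30897336-30906820, minus strand), the elongation factor, was the lowest of the 10, with 10.6 and 10.1 CPM in RBM25_sh libraries, against 7.53 and 4.85 CPM in Control_sh libraries. These rest on 158 and 159 counts in RBM25_sh libraries, against 119 and 87 in Control_sh libraries. The groups did not overlap (log2 fold change 0.74 ± 0.34 SE, edgeR adjusted p = 0.245). Its exons share 9.34% of their bases with *ADAP2* on the opposite strand. *ADAP2* had 186 and 182 counts in RBM25_sh libraries, against 206 and 252 in Control_sh libraries, more than *TEFM* in each. The exons of *TEFM* also share 16.8% of their bases with the antisense gene *AC130324.3*, which held 0 counts in every library.

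*MTERF1* (ENSG00000127989, chr7:91692008-91880720, minus strand), which binds the site shown in *MT-TL1*, had 31.4 and 20.1 CPM in RBM25_sh libraries, against 16.9 and 9.09 CPM in Control_sh libraries. Replicate 2 was the lower one in both groups, and both RBM25_sh libraries lay above both Control_sh libraries. The log2 fold change of 0.99 ± 0.38 did not pass (edgeR adjusted p = 0.176), and it was 1.51 without Control_sh replicate 1 and 0.60 without Control_sh replicate 2.

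Of the factors that act on finished RNA, *FASTKD2* (ENSG00000118246, chr2:206765357-206792509, plus strand), which binds the 16S rRNA, came nearest to the threshold. It had 75.1 and 62.1 CPM in RBM25_sh libraries, against 36.6 and 24.3 CPM in Control_sh libraries. The groups stood well apart, with a 2.25-fold difference (log2 fold change 1.17 ± 0.31 SE, edgeR adjusted p = 0.0715). The same gene had an adjusted p of 0.0112 in the DESeq2 Wald test, and over the 16 alternatives its adjusted p ranged up to 0.570. Its exons share 3.14% of their bases with *MDH1B* on the opposite strand, which had at most 58 counts in a library.

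*PNPT1* (ENSG00000138035, chr2:55634265-55693910, minus strand), the exoribonuclease, had 67.0 and 57.7 CPM in RBM25_sh libraries, against 47.5 and 36.9 CPM in Control_sh libraries. The groups did not overlap, yet a log2 fold change of 0.56 ± 0.28 did not pass (edgeR adjusted p = 0.287). *PNPT1P1* and *PNPT1P2*, its processed pseudogenes, held 0 counts.

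The mRNA-stabilising partners *LRPPRC* and *SLIRP* did not separate the groups. *LRPPRC* (ENSG00000138095, chr2:43886508-43996005, minus strand) had 427 and 371 CPM in RBM25_sh libraries, against 472 and 260 CPM in Control_sh libraries, so the Control_sh libraries bracketed both RBM25_sh libraries. Its log2 fold change was 0.13 ± 0.32 (edgeR adjusted p = 0.861), and −0.24 without Control_sh replicate 2. *SLIRP* (ENSG00000119705, chr14:77708071-77761104, plus strand) had 30.1 and 33.6 CPM in RBM25_sh libraries, against 15.9 and 35.5 CPM in Control_sh libraries. It was again bracketed by the Control_sh libraries (0.31 ± 0.38 SE, edgeR adjusted p = 0.691), and its log2 fold change was −0.15 without Control_sh replicate 1. The exons of *SLIRP* share 4.49% of their bases with *SNW1* on the opposite strand, which had 1465 and 1422 counts in RBM25_sh libraries, against 1156 and 1043 in Control_sh libraries. *SLIRP* itself had 449 and 527 counts in RBM25_sh libraries, against 252 and 637 in Control_sh libraries.

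The replicates differed in a way that followed the base composition of the transcripts. Over 10378 well expressed genes, replicate 2 exceeded replicate 1 in GC-rich genes, with a Spearman correlation of 0.84 in RBM25_sh and 0.82 in Control_sh libraries. Nearly all the 10 factors are AT-rich, with a GC content of the longest transcript between 36.5% for *FASTKD2* and 43.1% for *TFB1M*, apart from *POLRMT* at 66.3%. In each group replicate 2 was below replicate 1 in 7 of the 10. Across the 10 genes, GC content and the log2 fold change correlated at −0.84 (Spearman), and over the 10378 genes at −0.31. These genes share the same 4 libraries, and the correlations are descriptions.

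With each library's smooth trend on GC content removed by offsets, edgeR called 6 of the 10 higher and none lower, where 28.0% of all genes were called (12.0% higher and 16.0% lower). At an unadjusted p under 0.05 it gave 8 of the 10, where 41.0% of all genes met this limit. The 6 called were *FASTKD2* (log2 fold change 0.93 ± 0.13 SE, edgeR adjusted p = 0.00165), *MTERF1* (0.75 ± 0.19), *POLRMT* (0.62 ± 0.13), *TFAM* (0.55 ± 0.12), *TFB2M* (0.53 ± 0.17) and *PNPT1* (0.39 ± 0.13). *TFB2M* and *PNPT1* were just past the threshold, with edgeR adjusted p-values of 0.0478 and 0.0468. *TEFM* stood at 0.52 ± 0.22 and *TFB1M* at −0.47 ± 0.18 without passing (edgeR adjusted p = 0.101 and 0.0814), while *LRPPRC* at 0.02 ± 0.18 and *SLIRP* at 0.00 ± 0.42 were near 0. The median of the 10 was 0.53, and that of all genes −0.04. These offsets also remove any part of the difference between groups that follows GC content.

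**Figure D3:**
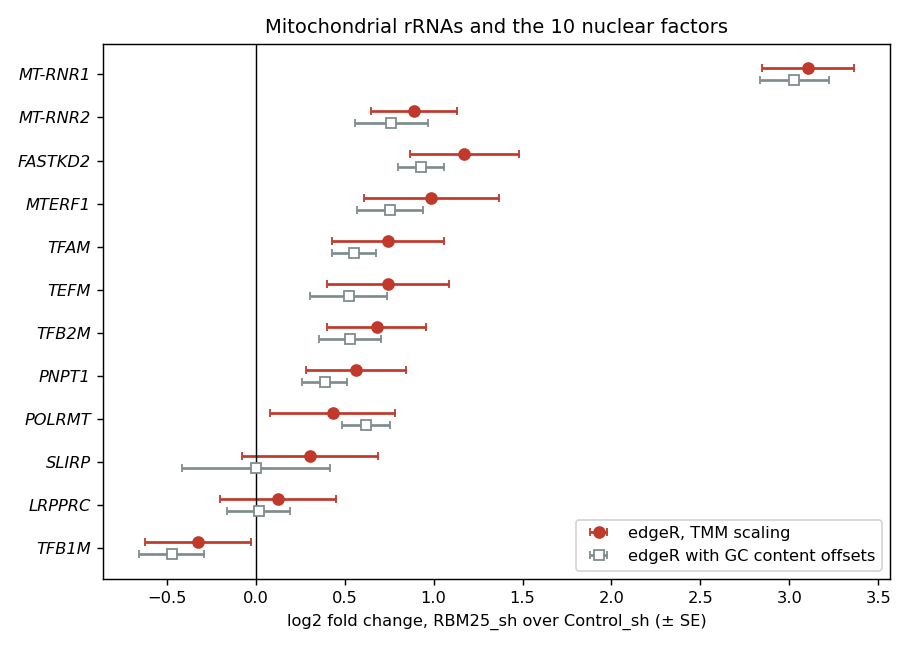
Log2 fold change of RBM25_sh over Control_sh with its SE for the 2 mitochondrial rRNAs and the 10 factors, from edgeR with TMM scaling (filled circles) and with GC content offsets (open squares). *MT-RNR1* stands at 3.11, beyond every factor, and *TFB1M* is the factor below 0 in both fits.

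The levels of the factors per length spanned more than 10-fold. In RBM25_sh libraries mean FPKM ran from *LRPPRC* (40.4 ± 5.37 SD, n = 2) through *POLRMT* (30.3 ± 11.1), *TFB2M* (19.6 ± 0.596), *TFAM* (18.7 ± 3.25), *PNPT1* (12.0 ± 1.68), *SLIRP* (11.9 ± 0.513), *FASTKD2* (11.2 ± 1.88), *TFB1M* (6.47 ± 1.45) and *MTERF1* (5.21 ± 1.79) to *TEFM* (3.17 ± 0.208). In Control_sh libraries the FPKM order was *LRPPRC* (36.1 ± 14.8), *POLRMT* (22.0 ± 6.39), *TFB2M* (11.9 ± 0.847), *TFAM* (10.8 ± 3.83), *SLIRP* (9.39 ± 5.04), *PNPT1* (7.90 ± 1.42), *TFB1M* (7.87 ± 0.0481), *FASTKD2* (4.81 ± 1.39), *MTERF1* (2.55 ± 1.09) and *TEFM* (1.85 ± 0.568). Neighbours whose FPKM ranges overlapped in both groups were *LRPPRC* with *POLRMT*, *TFB2M* with *TFAM*, and *PNPT1* with *SLIRP*. In RBM25_sh libraries alone, *SLIRP* with *FASTKD2* and *TFB1M* with *MTERF1* also overlapped. In Control_sh libraries alone, *TFAM* with *SLIRP*, *PNPT1* with *TFB1M*, and *MTERF1* with *TEFM* did. Overlapping neighbours are not ordered beyond their spread. The means of *PNPT1* and *SLIRP* stood in opposite orders in the 2 groups within their overlap. The FPKM of *FASTKD2* lay above that of *TFB1M* in both RBM25_sh libraries and below it in both Control_sh libraries. *FASTKD2* had 12.5 and 9.82 FPKM and *TFB1M* 7.50 and 5.45 FPKM in RBM25_sh libraries, against 5.80 and 3.83 FPKM for *FASTKD2* and 7.83 and 7.90 FPKM for *TFB1M* in Control_sh libraries.

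The wider set of nuclear genes for mitochondrial RNA and DNA held 61 genes in 4 lists, of which 60 were tested. EdgeR called 1 of them, *LONP1*, lower and none higher, beside 2.40% lower and 0.653% higher of all genes. An unadjusted p under 0.05 was found for 10 of them, 5 in each direction, beside 21.4% of all genes. *LONP1* encodes the matrix protease known to degrade TFAM protein. It had 72.5 and 107 CPM in RBM25_sh libraries, against 235 and 366 CPM in Control_sh libraries. The libraries of the 2 groups stood far apart, with a 3.36-fold lower value after knockdown (log2 fold change −1.75 ± 0.33 SE, edgeR adjusted p = 0.0283). Its edgeR adjusted p was 0.299 without RBM25_sh replicate 1 and 0.0628 without RBM25_sh replicate 2, and that of limma-trend was 0.0574 and 0.0535 on FPKM with pseudocounts of 1 and 0.1.

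Among the 19 other genes of RNA processing and stability, none was called, and the median log2 fold change was 0.19. It was above 0 in 14 of the 19, beside 47.5% of all genes. *PDE12*, a mitochondrial deadenylase, had 110 and 103 CPM in RBM25_sh libraries, against 61.5 and 40.8 CPM in Control_sh libraries (1.06 ± 0.30 SE, edgeR adjusted p = 0.0851). *FASTKD5*, a paralog of *FASTKD2* needed for mRNAs without flanking tRNAs, had 38.3 and 34.2 CPM in RBM25_sh libraries, against 20.6 and 21.5 CPM in Control_sh libraries (0.78 ± 0.28 SE, edgeR adjusted p = 0.150). With GC content offsets 4 of the 19 were called higher and 1 lower, beside 12.0% higher and 16.0% lower of all genes.

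Among the 20 genes of rRNA modification and mitochondrial ribosome assembly, none was called, and the 2 with the smallest p were lower in both RBM25_sh libraries. *MRM1*, a 16S rRNA methyltransferase, had 3.35 and 4.78 CPM in RBM25_sh libraries, against 7.84 and 12.4 CPM in Control_sh libraries (−1.31 ± 0.38 SE, edgeR adjusted p = 0.0896). *MTG1*, a GTPase of large subunit assembly, had 1.61 and 2.74 CPM in RBM25_sh libraries, against 5.19 and 6.42 CPM in Control_sh libraries (−1.41 ± 0.41 SE, edgeR adjusted p = 0.0958). The list's median was 0.19, and with GC content offsets 5 of the 20 were called higher and 4 lower, beside 12.0% and 16.0% of all genes.

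The other 11 genes of mitochondrial DNA replication and the nucleoid were not called beside *LONP1*, and *SSBP1*, the single-stranded DNA-binding protein, had the smallest p among them. It had 102 and 79.96 CPM in RBM25_sh libraries, against 47.0 and 56.0 CPM in Control_sh libraries (0.82 ± 0.28 SE, edgeR adjusted p = 0.137). With GC content offsets 2 of the 12 genes of this list, *POLG* and *TWNK*, were called higher and 1, *LONP1*, lower. Of all genes 12.0% were called higher and 16.0% lower with these offsets. Of the 10 nuclear regulators of these genes, *PPARGC1A* was at 0 in all 4 libraries, and none of the 9 tested was called. The nearest were *MYC* (−0.70 ± 0.27 SE, edgeR adjusted p = 0.177) and *SP1* (−0.56 ± 0.28, edgeR adjusted p = 0.283). The regulators had a median of −0.16 with 3 of 9 above 0, beside 47.5% of all genes. With GC content offsets 1 of the 9 was called higher and 3 lower, beside 12.0% higher and 16.0% lower of all genes. *MYC* and *SP1* were among those called lower with offsets. *NRF1*, whose site letters were found in 3 of the promoters, had 26.2 and 25.4 CPM in RBM25_sh libraries, against 25.9 and 30.6 CPM in Control_sh libraries. *GABPA*, the DNA-binding subunit of GABP, had 91.3 and 76.9 CPM in RBM25_sh libraries, against 84.9 and 44.9 CPM in Control_sh libraries. Both overlapped between the groups.

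**Figure D4:**
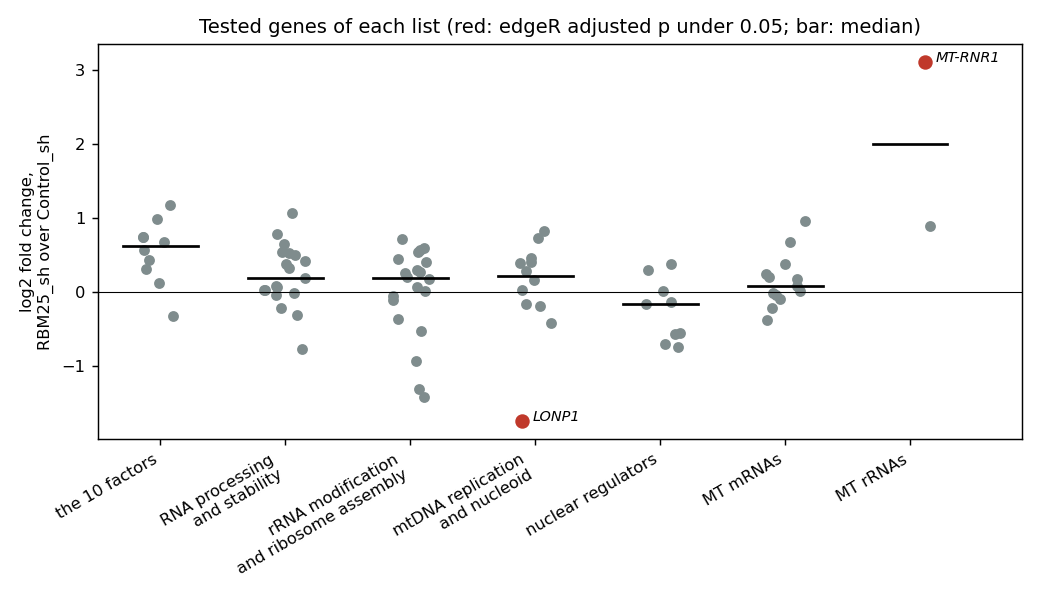
Log2 fold change of RBM25_sh over Control_sh for every tested gene of each list, with bars at the median and red points for an edgeR adjusted p under 0.05. The medians run from −0.16 for the nuclear regulators to 0.62 for the 10 factors among the nuclear lists, and *LONP1* and *MT-RNR1* are the red points.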

How the data were processed

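Groups follow the sample labels. RNA was isolated with TRIzol, cleaned on a column and turned into Illumina libraries, per the labels' protocols. TopHat2 2.0.9, Bowtie2 2.0.6, Cuffdiff 2.1.1 and Cufflinks 2.1.1 appear in the submitters' processing notes, with no role stated. Which tool counted reads, with which strand setting, filters and build, is not given in the sources used here. The authors deposited whole-number counts per gene, and FPKM per gene, which follow from those counts, each gene's listed length and 1 factor per library. All 58735 gene IDs have the position that GENCODE release 29 gives them on GRCh38, and 27 names held as dates were taken from it by ID.

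Counts were tested with edgeR 4.0.16 in R 4.3.3 (filterByExpr, TMM, quasi-likelihood F test, group as the only term, 2 residual degrees of freedom), two-sided, with Benjamini-Hochberg adjustment over all 16091 genes tested and a threshold of 0.05. The SE was taken as the absolute log2 fold change over the root of F. The fit was also run on simulated data with less random spread between libraries than these data. That run does not measure its accuracy here. GC offsets were a loess trend (span 0.5) of log2 CPM against GC content, read from each gene's longest GENCODE transcript for 99.95% of tested genes. Alternatives also included DESeq2 1.42.0, limma 3.58.1 and a replicate block. The genes, the lists, the alternatives and the rule for named genes were chosen with earlier results of these data known. The rule takes the 10 factors, both rRNAs and *RBM25*, and from each wider list every called gene and the 2 with the smallest p. *NRF1*, *GABPA*, *PPARGC1A*, *MT-ND6*, the cell markers named, the RNAs without poly(A) tails, the overlapping genes and the pseudogenes were added after values were seen. Figures were drawn with matplotlib 3.10.9.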

Additional observations from a re-analysis of the deposited data

How the results depend on the processing

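The *MT-RNR1* difference kept its direction and its call under all 16 alternatives (2.99 to 3.24 on the log2 scale without 1 library). The *MT-RNR2* difference gained a call with no filter (0.92), the DESeq2 Wald test (0.94), GC content offsets (0.76), a replicate block (0.90) and both together (0.76), and ranged from 0.71 to 1.10 without 1 library, where leaving out either Control_sh library gave a call. Of 491 genes called, the count was 1438 with no filter, 1085 with DESeq2, 215 and 268 with limma-trend on log2(FPKM + 1) and log2(FPKM + 0.1), 4506 with GC content offsets (1936 higher and 2570 lower, against 105 and 386), 5722 with a replicate block and 6342 with both, and 204 to 2389 without 1 library.

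Calls among the 10 factors, none in edgeR with group alone, were 1 higher with no filter and 1 with DESeq2 (*FASTKD2* in both, where 1.42% and 2.40% of all genes were called higher), 6 with GC content offsets, 6 with a replicate block and 6 with both, where 1, *TFB1M*, was also called lower. Without 1 library they ranged from 0 to 3 higher. The 3 came without Control_sh replicate 1 and were *TFAM*, *MTERF1* and *FASTKD2*, where 5.10% of all genes were called higher. Replicate numbers share only a number in the labels. Same-numbered libraries deviated together across genes (correlation 0.47), and with the replicate block *TFAM*, *TFB2M*, *TEFM*, *MTERF1*, *FASTKD2* and *PNPT1* were called higher. The block called 16.4% of all genes higher and 19.1% lower, and with GC content offsets 18.0% higher and 21.5% lower. The median of the 10 ranged from 0.51 to 0.76 over all alternatives. Scaling by library totals put the median of all genes at −0.15, against −0.04 with TMM scaling, and that of the 10 at 0.51. Without 1 library the log2 fold change ranged from −0.0071 (RBM25_sh replicate 2 left out) to 0.81 for *POLRMT*, from −0.24 (Control_sh replicate 2) to 0.63 for *LRPPRC* and from −0.15 (Control_sh replicate 1) to 0.996 for *SLIRP*.

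Of the 4 wider nuclear lists, none higher and 1 lower were called, beside 0.653% higher and 2.40% lower of all genes. With no filter these were 1 and 3, where 1.42% of all genes were called higher and 999 genes lower. With DESeq2 they were 1 and 1, where 2.40% were called higher and 699 genes lower. With limma-trend 0 were lower at either pseudocount, where 157 and 196 of all genes were. With GC content offsets they were 12 and 9, beside 12.0% higher and 16.0% lower of all genes. With a replicate block they were 18 and 10, beside 16.4% and 19.1%, and with both 20 and 13, beside 18.0% and 21.5%. Without 1 library they ranged from 0 to 2 higher and 0 to 5 lower. The mitochondrial mRNAs called higher were 1 with no filter, beside 1.42% of all genes, and 2 with GC content offsets, beside 12.0%. A replicate block also gave 2 higher, beside 16.4%. Both together gave 2 higher and 2 lower, beside 18.0% and 21.5%. The causes of these shifts were not tested. The 2 libraries per group limit all tests, and *TEFM*, *MRM1* and *MTG1* rest on few counts.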
